A study of Mus musculus with 5 samples.

Results

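The genes described here are 10 regulators of the naive pluripotent state, Zfp42, Esrrb, Klf2, Klf4, Klf5, Tbx3, Nr0b1, Tcl1, Tfcp2l1 and Prdm14, chosen by name. Of these, 9 were matched to a probe on the arrays through the RefSeq accession that the probe carries, and no probe was matched to Prdm14. In all, 18327 genes were matched in this way, and 15432 of them, the 9 regulators included, were well above background on at least 1 array. The study asked what became of the expression program of a mouse hepatoma line after its fusion with embryonic stem (ES) cells and on differentiation of the fused cells. There were 5 arrays, 1 for each condition.

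ES was the line E14, grown with leukemia inhibitory factor (LIF) in Glasgow medium with knockout serum replacement and a little serum. Hepa1-6 is a mouse hepatoma line, grown in high-glucose DMEM with fetal calf serum and no LIF. EHe were undifferentiated hybrids of E14 and Hepa1-6, kept in the ES cell medium. EHeD7 and EHeD14 were EHe after differentiation for 7 and 14 days. For this step the labels give a gelatin-coated monolayer in high-glucose DMEM with fetal calf serum. The methods of the study describe embryoid bodies, cultured with serum replacement in DMEM/F12, without naming the array samples. By either account LIF was left out, so cell state and medium changed at once. According to the methods, the ES parent carried a red fluorescent protein and hygromycin resistance from a lentiviral vector and the hepatoma parent a green fluorescent protein and neomycin resistance, the hybrids were made with polyethylene glycol, and hybrid lines had a near-tetraploid chromosome set. They were expanded from individual colonies picked for an ES-like shape after double drug selection. The methods add that colonies of other shapes stopped dividing and died, and were lost by the second passage. EHe thus stands for hybrids that had been picked by shape and had survived. The sources do not say how many colonies went into the EHe array.

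Naive pluripotency is the state of the preimplantation epiblast and of mouse ES cells held in LIF. It rests on the factors shared by all pluripotent cells, Oct4 (Pou5f1) and Sox2, together with a second circuit that the primed, postimplantation epiblast has shut off. LIF acts through the kinase JAK and the factor STAT3 and feeds this circuit at Klf4 and Tfcp2l1, while Wnt signalling relieves the repressor Tcf7l1 from Esrrb, Klf2 and Tfcp2l1. Esrrb, the Kruppel-like factors and Tbx3 then keep each other and the core genes active. When LIF is withdrawn the circuit is normally taken down within days, before Pou5f1 is lost. Zfp42, also called Rex1, is the usual reporter of the state, and Tcl1 is not a DNA-binding factor but a co-activator of the kinase AKT.

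All levels below are log2 processed signals minus the 75th percentile of the same array, and a signal is the spot intensity before that shift. Signals of different probes are not comparable with each other. With 1 array per condition no spread between replicates exists and no test was made. The error that could be measured was the SD between spots of the 245 probes printed 10 times, whose median was 0.11 on the log2 scale, so that 2 SD of a difference between single spots is 0.32. That is spot noise only. "Rose" and "fell" are used for differences over 3-fold. On each array 54.7 to 67.6% of probes were well above background. ES, EHe, EHeD7 and EHeD14 lay on 1 slide and Hepa1-6 on another, so a difference of slide cannot be told apart from one of line. ES and EHe had all 9 core pluripotency genes well above background, and Hepa1-6 had Alb at a signal of 97125 and Afp at 159094, which were not well above background in EHe, EHeD7 or EHeD14. Of the 8 hepatocyte markers examined, Ttr and Apoa1 were not well above background in Hepa1-6.

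Because most of the regulators moved together, their promoters were read for the sites of the factors they share. RefSeq promoter windows for GRCm38.p6, here the 250 bases before the start, covered 7 of the 10 genes and Esrrb with 2 windows. Klf5, Tbx3 and Prdm14 had no entry. The 3 windows below are shown because Zfp42 and Nr0b1 held the only motif matches and because Klf4 was the member whose Hepa1-6 level stayed nearest to ES. Capitals mark a match, and each sequence is written 5′ to 3′ on the strand of the gene. They lie at chr8:43307010-43307259 (minus strand), chrX:86191525-86191774 (plus strand) and chr4:55532476-55532725 (minus strand).
Zfp42: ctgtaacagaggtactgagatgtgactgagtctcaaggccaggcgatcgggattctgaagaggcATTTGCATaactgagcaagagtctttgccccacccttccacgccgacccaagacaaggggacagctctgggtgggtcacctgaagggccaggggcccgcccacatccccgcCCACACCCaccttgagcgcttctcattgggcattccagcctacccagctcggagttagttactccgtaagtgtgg
Nr0b1: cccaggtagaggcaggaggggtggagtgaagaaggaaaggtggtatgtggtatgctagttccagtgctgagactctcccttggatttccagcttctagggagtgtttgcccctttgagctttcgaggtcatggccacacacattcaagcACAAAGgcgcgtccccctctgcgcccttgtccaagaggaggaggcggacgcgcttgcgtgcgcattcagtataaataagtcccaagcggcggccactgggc
Klf4: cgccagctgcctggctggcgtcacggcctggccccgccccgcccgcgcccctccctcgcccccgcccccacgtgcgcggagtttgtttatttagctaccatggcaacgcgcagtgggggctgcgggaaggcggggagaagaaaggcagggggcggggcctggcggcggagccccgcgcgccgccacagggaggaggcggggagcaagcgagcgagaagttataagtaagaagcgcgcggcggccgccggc
The octamer ATGCAAAT, bound by Oct4, occurred in Zfp42 on the opposite strand, its first printed base 186 bases before the start, and in 1.6% of all 32817 windows on either strand. The Klf motif GGGTGTGG also occurred in Zfp42 on the opposite strand, 75 bases before the start, and in 3.19% of windows. The Sox motif ACAAAG occurred in Nr0b1, 101 bases before the start, and in 16.5% of windows. The Esrrb motif TCAAGGTCA (0.387% of windows) and the STAT motif TTCCNGGAA (0.914%) matched none of the members' 8 windows. The matches did not overlap each other. The members also differed in base composition. The ratio of observed to expected CpG was 0.94 in Klf4 and 0.92 in Klf2, against a median of 0.37 over all windows, and 0.61 in Tfcp2l1, 0.55 in Nr0b1, 0.42 in Zfp42 and 0.34 in Tcl1. Esrrb had 0.26 and 0.19 in its windows. GC content was 74.0% in Klf4 and 71.2% in Klf2, against a median of 52.4%.

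The 9 measured regulators were all present in the undifferentiated hybrids, and on the brightest probe of each gene all 9 fell on differentiation. Another Klf2 probe did not fall, and with its probes averaged Klf2 stayed within 3-fold of EHe at day 7. By day 14 the brightest probe of each regulator was 6.53- to 116-fold below EHe, with Esrrb lowest and Klf5 least changed. Of 9 core pluripotency genes, 8 lay within 3-fold of EHe at day 7 and day 14, Pou5f1 among them, and Sox2 fell. Most genes also lay within 3-fold. Of all genes, 4.66% were lower and 9.41% higher at day 7, and 5.15% and 9.58% at day 14. Hepa1-6 lacked Zfp42, Esrrb and Nr0b1 above background but held Klf4 within 2-fold of ES. Against ES, 8 of 9 members were over 3-fold lower in Hepa1-6, where 27.7% of all genes were. In EHeD14 all 9 were, where 8.11% of genes were. Klf4 apart, the hepatoma parent and EHeD14 thus differed in how low each member stood. In these bulk samples, fewer cells that express a gene and less RNA per cell cannot be told apart.

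**Figure D1:**
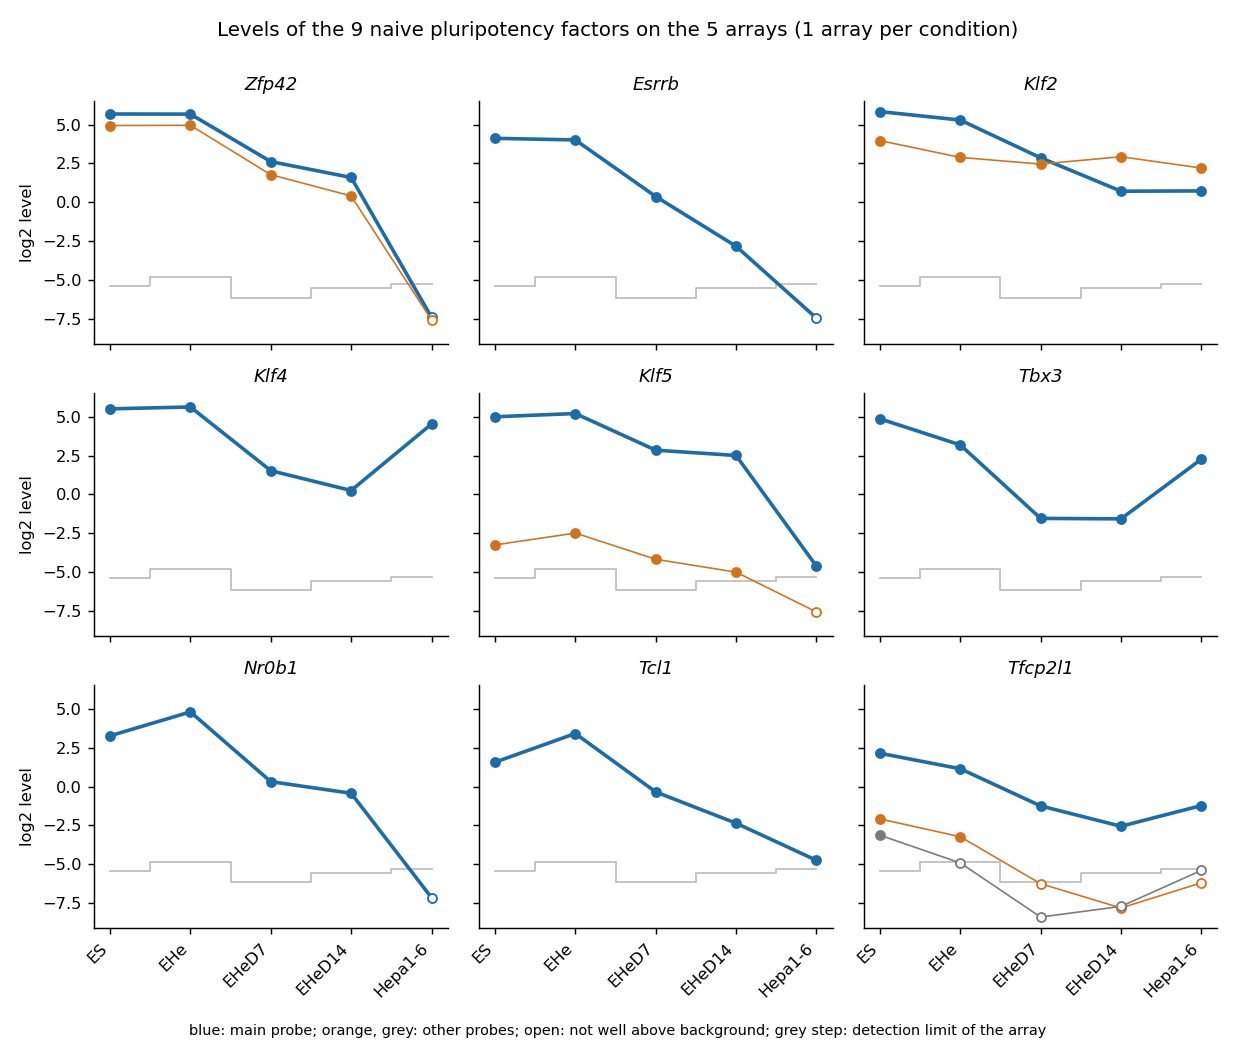
Log2 level (processed signal minus the 75th percentile of the array) of each matched regulator on the 5 arrays, 1 array per condition. Blue is the brightest probe of the gene, orange and grey are its other probes, open circles are not well above background, and the grey step is the lowest level called well above background on each array. All blue lines drop from EHe to EHeD7, and the orange Klf2 probe does not follow the blue one.

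Zfp42 (chr8:43295067-43307009, GRCm38.p6), a zinc finger protein that marks naive cells, had a signal of 56115 in ES, 66349 in EHe, 8043 at day 7, 4033 at day 14 and 8.52 in Hepa1-6. The last was not well above background. ES and EHe differed by -0.01 on the log2 scale, less than the spot noise. Zfp42 fell 8.34-fold at day 7 and 17.0-fold at day 14 against EHe. A second probe, which carries a GenBank accession and was named only through a supplementary probe list of the study, gave 33546, 40223, 4473, 1769 and 7.55 in the same order. That probe fell 23.5-fold at day 14, so both probes put EHeD14 well above Hepa1-6 and well below EHe.

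Esrrb (chr12:86361117-86521628), an orphan nuclear receptor that can stand in for Nanog in the circuit, was measured at 18913 in ES, 20928 in EHe, 1688 at day 7, 186 at day 14 and 8.19 in Hepa1-6, where it was not well above background. It lost 12.5-fold by day 7 and a further 9.25-fold between day 7 and day 14. No other member dropped as far: EHeD14 kept 0.862% of the EHe level. Its log2 difference at day 14, -6.86, lay between -6.98 and -6.10 under the processing alternatives tried.

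The 3 Kruppel-like factors are zinc finger proteins with overlapping binding sites, and ES cells can lose any one of them alone. Klf4 (chr4:55527137-55532475), the member induced most directly by LIF and STAT3, had signals of 49835 in ES, 64432 in EHe, 3782 at day 7, 1590 at day 14 and 33881 in Hepa1-6. It fell 17.2-fold at day 7 and 41.8-fold at day 14. Both differentiated hybrids thus lay below both parents of the fusion. Klf5 (chr14:99298691-99313412), which also acts in epithelia, read 34950 in ES, 48074 in EHe, 9454 at day 7, 7603 at day 14 and 58.9 in Hepa1-6. Its fall of 6.53-fold at day 14 was the smallest of the 9, and nearly all of it was reached at day 7, when it was 5.14-fold below EHe. A second Klf5 probe, again named through the supplementary list, read 114, 230, 72.0, 41.4 and 7.61, and put day 14 at 5.74-fold below EHe.

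Klf2 (chr8:72319062-72321654), the Kruppel-like factor of naive cells whose expression depends less on LIF, was the one member whose probes disagreed. The brighter of its probes read 62498 in ES, 50888 in EHe, 9523 at day 7, 2185 at day 14 and 2412 in Hepa1-6, a fall of 5.40-fold at day 7 and of 24.0-fold at day 14. The other probe carries the same RefSeq accession and read 17089, 9589, 7191, 10197 and 6711. On this probe the difference from EHe on the log2 scale was -0.43 at day 7 and 0.04 at day 14. When both were averaged, Klf2 stood at -1.43 at day 7, within 3-fold, and at -2.27 at day 14, past it. Every statement on Klf2 therefore holds for the brighter probe only.

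Tbx3 (chr5:119670534-119684724), a T-box factor downstream of the PI3 kinase arm of LIF signalling, was measured at 31949 in ES, 11828 in EHe, 447 at day 7, 448 at day 14 and 7042 in Hepa1-6. It was the only member over 3-fold lower in EHe than in ES, by 3.21-fold, with Hepa1-6 a further 0.92 below EHe on the log2 scale. Tbx3 had the largest fall of the 9 at day 7, 26.7-fold, and did not move between day 7 and day 14, where the difference was -0.03. Tfcp2l1 (chr1:118627923-118685168), a Grainyhead-like factor that LIF and Wnt both feed, read 4829 in ES, 2872 in EHe, 551 at day 7, 227 at day 14 and 624 in Hepa1-6. It fell 5.27-fold at day 7 and 13.1-fold at day 14. Of its other probes, one was above background in ES (257) and EHe (138) only and one in ES (124) only, and the first gave a fall of at least 5.0-fold at day 14.

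Here and below "at least" sets the brighter array against the higher of the lowest level called well above background on the dimmer array and the dim probe's own level there. Nr0b1 (chrX:86191775-86195947), also called Dax1, is an orphan receptor without a DNA-binding zinc finger that restrains Oct4 and other partners. Its signals were 10523 in ES, 36442 in EHe, 1632 at day 7, 991 at day 14 and 10.2 in Hepa1-6, the last not well above background. EHe was 2.91-fold above ES. From there Nr0b1 fell 22.6-fold at day 7 and 38.0-fold at day 14. Tcl1 (chr12:105216753-105222737) was likewise higher in the hybrids, with 3236 in ES, 13882 in EHe, 1031 at day 7, 260 at day 14 and 54.0 in Hepa1-6. EHe was 3.61-fold above ES, and Tcl1 then fell 13.6-fold at day 7 and 55.1-fold at day 14.

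In the undifferentiated hybrids, set against ES, 1 of 9 regulators was over 3-fold higher (Tcl1) and 1 over 3-fold lower (Tbx3). Of 15430 genes compared, 2.94% were over 3-fold higher and 5.87% lower. The median difference of the members was -0.01 on the log2 scale, against -0.14 for all genes, and the range ran from -1.68 to 1.85. Zfp42, Esrrb, Klf4 and Klf5 lay within 2 SD of spot noise of ES, a share that was not computed over all genes. Klf5 ran from 0.21 to 0.36 over the processing settings, so its place within that mark was not stable. Nr0b1, at 1.54, was just inside the 3-fold mark of 1.58, and passed it under normexp background correction, quantile normalization or median centring. Tbx3 came inside it under quantile normalization or median centring. On the same arrays 4 of 6 primitive endoderm markers were over 3-fold lower in EHe than in ES, Gata6 by 12.9-fold, and 4 of 7 trophoblast markers were, or 3 with dim values raised. Their part in the differences of the members was not tested.

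On the brightest probe of each gene, all 9 members were over 3-fold below EHe after 7 days, where 4.66% of all genes were. Their median difference was -3.65, against -0.08 for all genes. After 14 days all 9 were again below, where 5.15% of genes were, with a median of -4.77 against -0.05. Both days are compared with the same EHe array, so its error enters both sets of values. The share of the EHe level kept at day 7 and day 14 was 19.4% and 15.3% for Klf5, and 19.0% and 7.65% for Tfcp2l1. It was 12.0% and 5.89% for Zfp42, and 3.74% and 3.67% for Tbx3. The members thus differed in how much of the loss had happened by day 7. Each of the 9 was still well above background on both differentiated arrays. Set against ES in place of EHe, EHeD14 was over 3-fold lower in all 9, with a median of -4.71, where 8.11% of genes were over 3-fold lower.

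**Figure D2:**
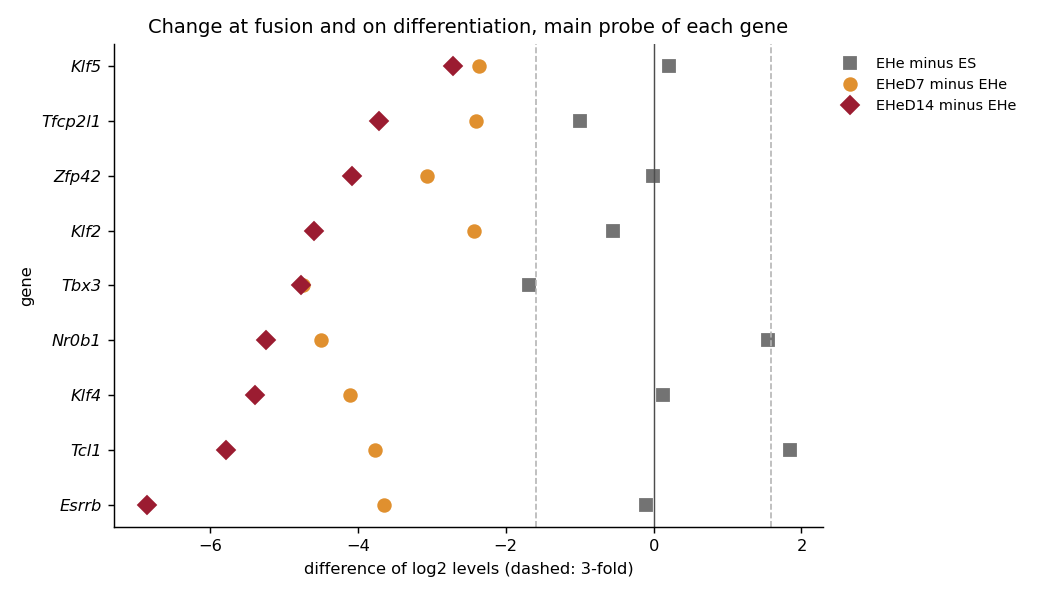
Difference of log2 levels for the brightest probe of each regulator: EHe minus ES (squares), EHeD7 minus EHe (circles) and EHeD14 minus EHe (diamonds), with dashed lines at 3-fold. All circles and diamonds lie left of the 3-fold line, between -2.36 and -4.74 for day 7 and between -2.71 and -6.86 for day 14, while the squares run from -1.68 to 1.85.

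Between day 7 and day 14, 3 of 9 members fell over 3-fold, where 1.20% of all genes did. These were Esrrb at 9.25-fold, Klf2 at 4.45-fold and Tcl1 at 4.05-fold. Tfcp2l1, Klf4 and Zfp42 were 2.48-, 2.43- and 2.04-fold lower at day 14, Nr0b1 1.68-fold and Klf5 1.27-fold. The median was -1.28, against 0.02 for all genes. In 8 of 9 members day 14 was lower by more than 2 SD of spot noise, and the exception was Tbx3. The share of all genes past that mark of 0.32 was not computed. Klf5, at -0.34, ran from -0.44 to -0.31 over the processing settings, so its place beyond the mark was not stable.

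The hepatoma parent was set against ES to see which members it expressed itself. In Hepa1-6, 8 of 9 members were over 3-fold lower, with a median of -6.33, where 27.7% of all genes were over 3-fold lower and their median was -0.49. That all-gene median depends on the scaling, and was 0.31 when each array was centred on its median. Zfp42 was at least 2040-fold lower than in ES, Esrrb at least 688-fold and Nr0b1 at least 383-fold. These bounds, -10.99, -9.43 and -8.58 on the log2 scale, hold for the main processing only. Normexp gave -9.20, -7.62 and -6.42. Klf5 was 795-fold lower, and Tcl1 80.4-fold, both above background but near it. Klf2, Tfcp2l1 and Tbx3 were 34.7-, 10.4- and 6.08-fold lower. Klf4 was the exception at 1.97-fold, or -0.98 on the log2 scale, and ran from -1.13 to -0.17 under the alternatives.

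EHe, in turn, was over 3-fold above Hepa1-6 in 7 of 9 members, where 23.3% of all genes were, and the others were Klf4 at 2.14-fold and Tbx3 at 1.89-fold. At day 14, 5 of 9 members were still over 3-fold above Hepa1-6, where 23.6% of genes were, and 2 were over 3-fold below it, where 13.0% were. Zfp42 was at least 119-fold higher, Klf5 141-fold, Nr0b1 at least 29.4-fold, Esrrb at least 5.52-fold and Tcl1 5.26-fold. With normexp Esrrb and Tcl1 came within 3-fold, at 1.36 and 1.28 on the log2 scale. Klf4 was 19.5-fold lower at day 14 than in Hepa1-6 and Tbx3 14.4-fold lower. Klf2 differed by -0.02, less than the spot noise, and Tfcp2l1 was 2.52-fold lower. The order of the arrays was therefore not shared: Hepa1-6 was lowest for Zfp42, Esrrb, Klf5, Nr0b1 and Tcl1, and EHeD14 for Klf4 and Tfcp2l1. For Klf2 and Tbx3 the lowest places were shared within spot noise, by EHeD14 with Hepa1-6 and by EHeD14 with EHeD7.

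**Figure D3:**
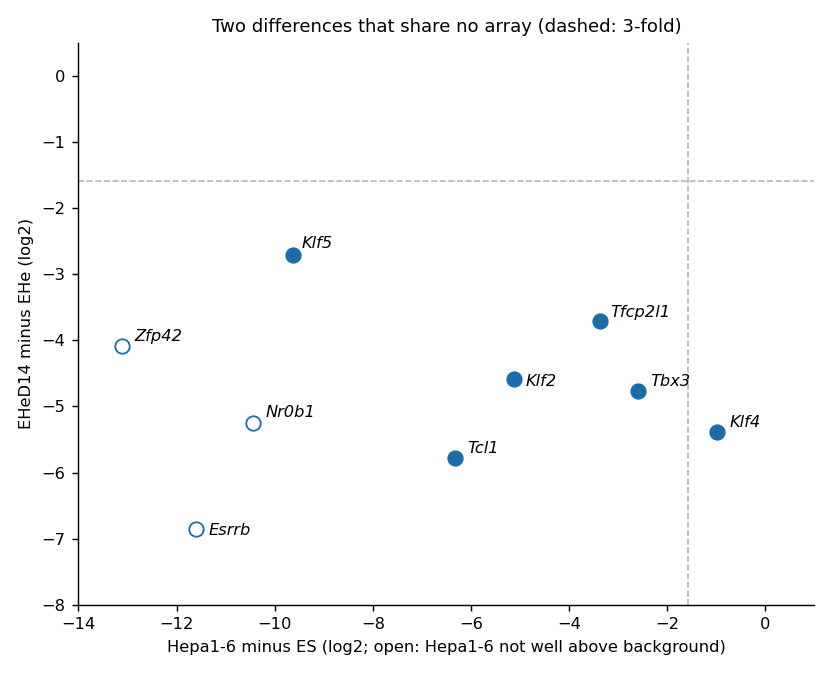
EHeD14 minus EHe against Hepa1-6 minus ES for the brightest probe of each regulator, in log2 units, with dashed lines at 3-fold; the axes share no array, and open circles were not well above background in Hepa1-6. All 9 points lie below the horizontal line, and Klf4 alone lies to the right of the vertical one, at -0.98.

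The other genes of the naive state were read from a list of 17, of which 15 were matched and passed the filter. At day 14, 10 of the 15 were over 3-fold lower than in EHe, where 5.15% of all genes were, and none higher, with a median of -2.14. Gbx2, a homeobox factor of the LIF and STAT3 program, read 2209, 5797, 82.3, 28.9 and 47.1 from ES to Hepa1-6, with EHeD14 not well above background, and fell at least 207-fold. Nr5a2, an orphan receptor that can drive Pou5f1, fell at least 134-fold, Jam2, a junction protein, 130-fold, and Fbxo15, an F-box protein used as an ES cell reporter, 48.3-fold. Not all of the list moved: Tdh, the threonine dehydrogenase of mouse ES cells, was at -0.08. Dppa5a stood at -1.28 on its brightest probe and at -1.82, past 3-fold, on a second probe. Pramel6 and Pramel7 were already not well above background in EHe. Against ES, EHe was over 3-fold lower in 6 of the 15, Dppa3 and Sox15 among them, where 5.87% of all genes were. With dim values raised to the detection limit there were 5.

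The core pluripotency genes gave another picture. Of 9, 1 was over 3-fold lower at day 14, where 5.15% of all genes were, and none higher, where 9.58% were. The median was -0.02, against -0.05 for all genes, so the list lay close to genes in general. Pou5f1 read 14594 in ES, 21296 in EHe, 27691 at day 7, 24111 at day 14 and 15.1 in Hepa1-6. Sox2 fell 3.46-fold at day 7 and 4.48-fold at day 14. The primed epiblast genes went the other way, with 8 of 13 over 3-fold higher at day 7, where 9.41% of all genes were, and 9 at day 14, where 9.58% were. The latter count was 8 when dim values were raised to the limit of their array. At day 14, 1 was lower and the median was 2.65. Otx2, the homeobox factor that redirects Oct4 in primed cells, rose 17.6-fold, Dnmt3b, a de novo DNA methyltransferase, 6.29-fold, and Pou3f1 9.49-fold. Otx2 read 5397 in ES, 886 in EHe and 16107 at day 14, so its rise started from a level below ES. Against ES, EHe was over 3-fold lower in 3 of the 13, where 5.87% of all genes were, and higher in 1, where 2.94% were. EHeD14 was over 3-fold higher than ES in 9, where 9.18% of all genes were. With dim values raised these counts were 1, 0 and 7. In EHe, Fgf5, the ligand by which primed epiblast is recognised, was not well above background, and it rose at least 227-fold. Zic2 fell 3.68-fold.

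**Figure D4:**
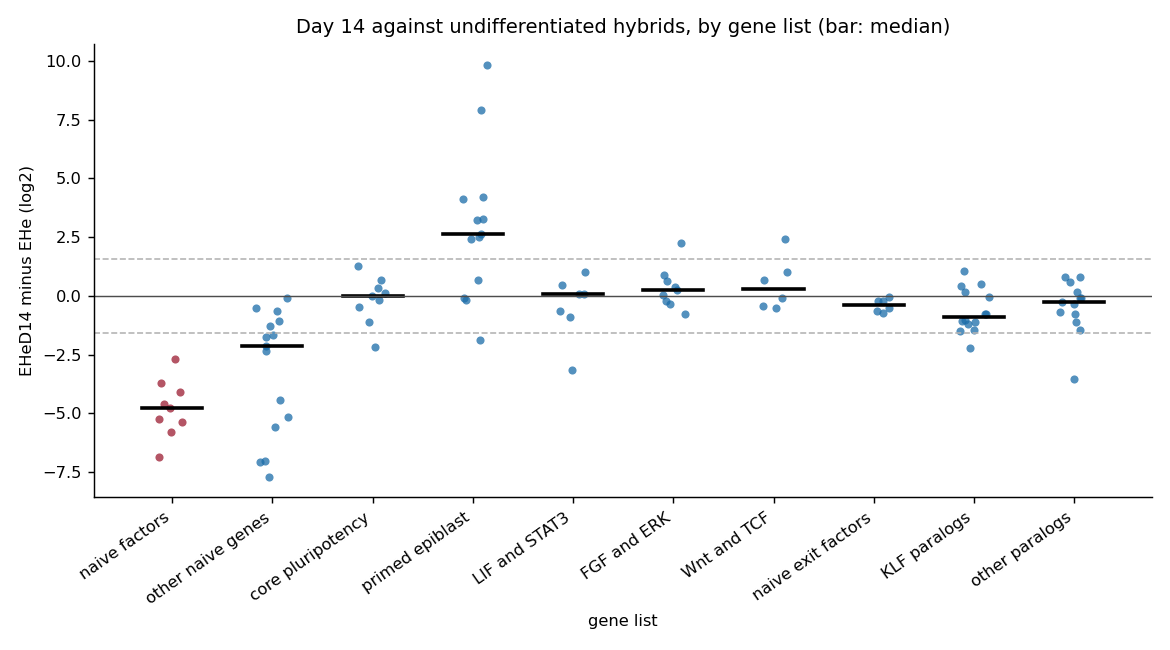
EHeD14 minus EHe in log2 units for each gene of 10 lists, with the naive regulators in red, a bar at each list's median and dashed lines at 3-fold. The regulators all lie below the lower line, with a median of -4.77, the core pluripotency genes centre on -0.02 and the primed epiblast genes on 2.65.

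The inputs to the circuit were read at the RNA level. Of all genes, 4.66% were over 3-fold lower than in EHe and 9.41% higher at day 7. At day 14 these shares were 5.15% and 9.58%. The lists below are too short to show whether the inputs changed more or less often than other genes. Among 7 genes of LIF and STAT3 signalling, 1 was over 3-fold lower at either day. It was Socs3, the feedback inhibitor that STAT3 induces, which read 47936 in ES, 45441 in EHe, 6865 at day 7, 5236 at day 14 and 11414 in Hepa1-6. Stat3 itself was 1.86-fold lower at day 14, and the receptor chain Lifr 1.99-fold higher. Of 9 measured genes of FGF and ERK signalling, the arm that ends the naive state, only Egr1 passed, 4.74-fold higher at day 14. Of 6 genes of Wnt signalling none was lower, and 2 were higher at day 7. They were Lef1, at 3.44-fold, and Axin2, a feedback target not well above background in EHe, at 3.26-fold or more. Axin2 alone passed at day 14, with at least 2.63-fold, and did not pass with dim values raised. None of 6 factors needed for exit from the naive state, such as Tcf7l1 (-0.50) and Zfp281 (-0.24), passed 3-fold at either day.

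Relatives of the members were compared to see whether the families moved as a whole. Of the other 14 Kruppel-like factors, 2 were over 3-fold lower at day 7 (Klf3 and Klf12) and 1 at day 14 (Klf3, 4.67-fold), and none was higher. Of all genes, 4.66% were over 3-fold lower at day 7 and 5.15% at day 14. Their median at day 14 was -0.91. At day 7 a second Klf3 probe stood at -0.44 and a second Klf12 probe, not well above background in EHe, at -0.88. At day 14 the second Klf3 probe stood at -0.76, so no call on either gene was shared between its probes. In Hepa1-6 against ES, Klf6 was higher by 4.11 on the log2 scale, where 14.1% of all genes were over 3-fold higher. Over 3-fold lower were 7 of the 14, or 6 with dim values raised, where 27.7% of all genes were. Of the genes counted as lower, Klf3 and Klf11 had second probes at 0.71 and -0.56. The second probes of Klf8 and Klf15 stood at -2.53 and -2.58. Of 13 relatives of the other members, Prdm1 alone fell, 11.7-fold at day 14. Esrra differed from EHe by -0.69, Tbx2 by 0.59 and Tfcp2 by -0.25. Tcl1b2, a neighbour and relative of Tcl1, was also higher in EHe than in ES, by 2.62, but stood 0.82 above EHe at day 14.

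Profiles over the 5 arrays, each centred on its own mean, were compared with the median profile of the 9 members by Euclidean distance. Of 15400 genes, Rinl lay nearest at 0.87, followed by Fam178b at 0.88, Calml4 at 0.90, Zfyve28 at 1.09 and Rpl3l at 1.12. Rinl read 4606 in ES, 6660 in EHe, 853 at day 7, 336 at day 14 and 63.7 in Hepa1-6. Among the members Tcl1 was nearest to the common profile, at 1.21, and Tbx3 farthest, at 6.20.

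Markers of other cell types were read on the same arrays as the fall. In EHeD14 against EHe, 9.58% of all genes were over 3-fold higher and 5.15% lower. With dim values raised to the limit these shares were 6.82% and 4.40%. In EHeD14 against EHe, 4 of 6 primitive endoderm markers (3 with dim values raised to the limit) were over 3-fold higher, with summed levels from 0.867 in EHe to 3.13 in EHeD14, in multiples of the 75th percentile. Each sum adds the signals of different probes and is read across arrays of the same list only. Primitive endoderm markers were higher still in ES, with a sum of 5.10. Of 7 trophoblast markers 4 were higher (3 with dim values at the limit) and Tfap2c was 34.9-fold lower. Their sum went from 11.1 to 100, which at day 14 was nearly all Krt8 and Krt18, whereas Elf5 was not well above background in EHeD14 and Cdx2 had a signal of 46.2. Of 6 fibroblast markers that passed 5 were higher (3 with dim values at the limit), their sum going from 0.954 to 5.18, with Dcn and Lum not well above background in any hybrid. Of 7 germ cell markers 5 were lower, and their sum went from 17.1 to 4.88. Of 6 hepatocyte markers that passed 1 was higher at day 14, and none with dim values raised, and the list summed to 0.341 in EHe, 0.303 in EHeD14 and 228 in Hepa1-6. The part of these other cell types in the falls was not tested.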

How the data were processed

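RNA of 5 samples, 1 per condition, was hybridized to Agilent mouse oligo arrays read in 1 channel, with Cy3 per the labels and Cy5 per the paper's methods. The authors deposited for each array the processed signal intensity from Agilent Feature Extraction 10.7.3.1, already corrected for background but not normalized between arrays, with calls of 0 or 1 that mark a spot as an outlier, as saturated or as well above background. The deposited series table held the same intensity values. Conditions were taken from the labels.

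Control spots and outlier spots (73 to 174 per array) were left out, and none was saturated. The 75th percentile of each array (a signal of 1087 to 1456) was subtracted on the log2 scale, and spots of the same probe were averaged. RefSeq accessions named 26888 of 41174 probes, and 14286 stayed unnamed. The brightest probe stood for a gene, and 12 probes were matched to the 9 members. The detection limit was the lowest signal called well above background, 18.3 to 45.1. The scanner's own error on the members' main probes, where these were above background, was 10.0 to 18.2% of the signal.

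Genes named were the members, genes of the fixed lists, and the 5 nearest profiles. The members, the lists and the comparisons were chosen with earlier results of these data known. Differences over 3-fold were counted without a test. Alternatives were normexp background correction (offset 50, on the median spot signal), quantile normalization, median centring, the series table, dim values at the detection limit, the mean of a gene's probes, a 2-fold threshold, no filter and a filter on all 5 arrays. As a check of the code, spot noise alone (SD 0.11) was added to the ES levels, with 200 genes raised and 200 lowered by 3 on the log2 scale. All were recovered, which was certain at that size and noise and says nothing on differences between arrays or cultures. Protein sequences of the members were not analysed here. Normexp used limma 3.58.1 in R 4.3.3, and the rest Python 3.11.15 with pandas 2.3.3, numpy 2.4.6 and matplotlib 3.10.9.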

Additional observations from a re-analysis of the deposited data

How the results depend on the processing

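All 9 members stayed lower than EHe at day 7 and day 14 under the 6 alternatives that recompute each member (normexp, quantile normalization, median centring, the series table, raised dim values and the mean of probes). Over these and the other alternatives the medians lay between -3.81 and -3.10 at day 7 and between -4.89 and -4.56 at day 14. With the mean of a gene's probes 8 members passed at day 7, where 4.57% of all genes were over 3-fold lower. Of 144 recomputed counts, 133 stayed within 1.5 times the reported one. Part of these were fixed in advance. The series table held the same intensities, and dropping the filter could not matter because all 9 members had passed it. Raising dim values could not alter comparisons among ES, EHe, EHeD7 and EHeD14. The brightest probes of all 9 members were well above background on those arrays. In EHe against ES, 2 members were higher with normexp, quantile normalization, median centring or a 2-fold threshold. The shares of all genes higher were 0.933%, 3.49%, 3.60% and 7.47% in that order. With quantile normalization or median centring 0 members were lower, where 5.38% and 4.96% of all genes were. In EHeD14 against Hepa1-6, 3 members were higher with normexp, where 12.5% of all genes were. In EHeD14 against EHeD7, 6 were lower at 2-fold, where 2.73% of all genes were. The filter on all 5 arrays left 6 members. Of these 5 were lower in Hepa1-6 than in ES, where 15.6% of the genes it kept were. In EHe 4 were higher than in Hepa1-6, where 13.2% were, and in EHeD14 2 were, where 11.3% were. The filter turned the median of the last comparison to -0.68, since it removed Zfp42, Esrrb and Nr0b1. For the other shifts the cause was not tested. Median centring moved the all-gene median at day 7 from -0.08 to -0.24, and at day 14 from -0.05 to -0.17. No paired analysis was possible because no condition had a second array. Signal over background limits Zfp42, Esrrb and Nr0b1 in Hepa1-6 to bounds.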
